A study of Rattus norvegicus with 8 samples.

Results

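Voltage-gated calcium channels are built around a pore-forming α1 subunit that is joined by accessory subunits, and these accessory subunits set how many channels reach the membrane of axons and nerve terminals and how readily they open. The genes described here are Cacna2d1 (ENSRNOG00000033531) and Cacna2d3 (ENSRNOG00000031287), which encode extracellular α2δ subunits, and Cacnb4 (ENSRNOG00000007666), which encodes a cytoplasmic β subunit. The protein of Cacna2d1 is the binding site through which gabapentin and pregabalin act on neuropathic pain, whereas the protein of Cacna2d3 does not bind these drugs with high affinity. In sensory neurons, channels carrying such subunits admit the calcium that releases transmitter in the spinal dorsal horn. The 3 genes were chosen by identifier among 32623 in the table, and all 3 passed the filter on low counts that left 16988 genes for testing. The study itself names all 3 for their change after injury in these same libraries, so their direction here is not independent evidence.

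RNA-seq was performed on dorsal root ganglia (DRGs), the ganglia that hold the cell bodies of sensory neurons, from Sprague-Dawley rats. Each of the 8 libraries held the pooled ipsilateral L4-L6 DRGs of 1 rat, and 2 rats of either sex were naïve or injured, which gives 4 groups. In chronic constriction injury (CCI), the treatment of the injured groups, the sciatic nerve is loosely tied with 4 silk sutures, and the DRGs of injured rats were taken on day 14. Naïve rats had no surgery, so skin incision and muscle damage also separate the CCI groups from their controls, and exact ages and the stage of the estrous cycle are not given. Total counts ranged from 39489103 to 60818457 per library. The columns of replicate 1 of both male groups carry an added letter in their names that is not explained. The libraries were sequenced in 2 batches, and the batch of each library is not given in the sources used here. Expression is given as CPM, read counts per library size as corrected with TMM factors, and a difference as a log2 fold change (log2FC). A gene was called when the adjusted p was under 0.05 and the absolute log2FC was above 0.5, and an interaction when the adjusted p was under 0.05, whatever its log2FC.

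Of the 3 genes, Cacna2d1 was the one called higher in both sexes. The naïve males expressed it at 62.1 and 72.8 CPM, the CCI males at 246 and 230 CPM. Females had 74.3 and 80.4 CPM when naïve against 290.2 and 301 CPM after CCI. Every injured rat of either sex therefore lay above every naïve rat, and the lowest CCI male was still 3.16 times the highest naïve male, against 3.61 times in females. The change was 3.53-fold in males (log2FC 1.82, SE 0.104, adjusted p = 0.00565) and 3.79-fold in females (log2FC 1.92, SE 0.0858, adjusted p = 8.3e-05). Counted from the highest log2FC down, Cacna2d1 ranked 184 in males and 132 in females among all genes tested.

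Cacna2d3 was the second α2δ gene, and its rise was smaller and was called in males. Naïve males were at 69.6 and 70.3 CPM and CCI males at 108 and 111 CPM. Values of 85.3 and 86.9 CPM were measured in naïve and of 92.5 and 103 CPM in injured females. The CCI males were the highest group, the naïve males the lowest, and the female groups lay between them without overlapping each other. The change was 1.57-fold in males (log2FC 0.65, SE 0.060, adjusted p = 0.00565), a call that was lost when tested with glmTreat against a log2FC of 0.5 (adjusted p = 0.0879). In females the log2FC was 0.17 (95% confidence interval -0.02 to 0.37, adjusted p = 0.216), an interval that leaves room for no change and for a rise smaller than the threshold.

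Cacnb4, whose protein binds the α1 subunit from the inside and helps it to the membrane, moved like Cacna2d3. Its level was 52.9 and 58.4 CPM in the naïve against 91.2 and 85.9 CPM in the injured males. The female values were 62.9 and 68.9 CPM in naïve rats against 72.2 and 71.0 CPM after CCI. CCI males again formed the highest group, while the CCI females were only 1.03 to 1.15 times the naïve females. The change was 1.59-fold in males (log2FC 0.67, SE 0.0823, adjusted p = 0.00661; glmTreat adjusted p = 0.123, not called) and was not called in females (log2FC 0.11, 95% confidence interval -0.09 to 0.31, adjusted p = 0.429).

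**Figure D1:**
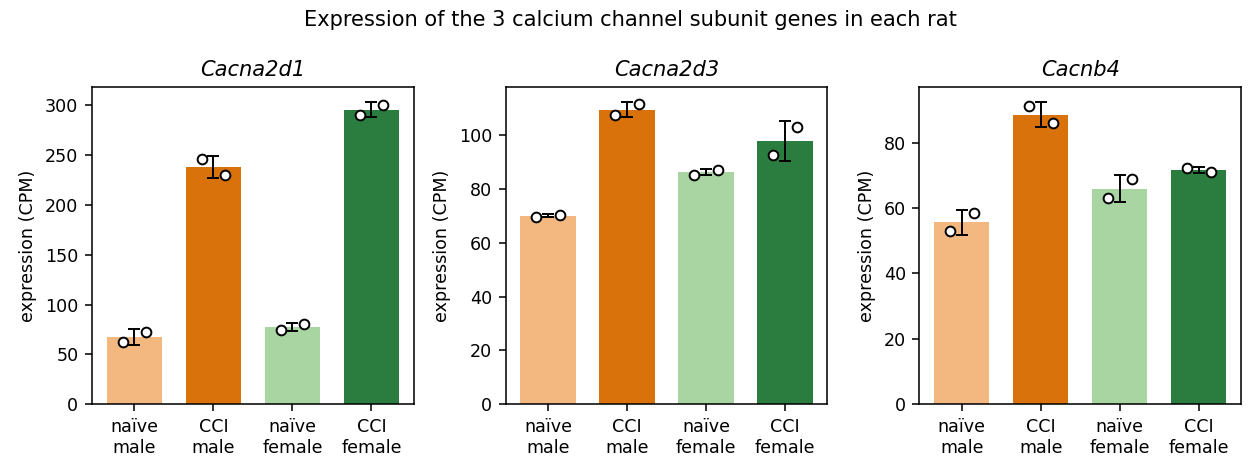
Expression in CPM (vertical axis, starting at 0 and scaled for each gene) of Cacna2d1, Cacna2d3 and Cacnb4 in naïve and CCI rats of each sex, with bars for the mean of 2 rats, error bars for the SD and circles for single rats. Cacna2d1 rises from 67.5 to 238 CPM in males and from 77.3 to 295 CPM in females, while the tallest bar of Cacna2d3 and Cacnb4 is that of the CCI males.

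Among all genes tested, 9.05% were called higher after CCI in males and 3.69% in females, while the groups did not overlap in 72.8% of genes in males and 59.5% in females. Thus a lack of overlap between 2 rats and 2 rats was common. Of the 3 accessory subunit genes, 3 were called higher in males and 1 in females. The study names these genes for their change in these libraries, so the count is a description. With glmTreat 1 of the 3, Cacna2d1, was called in males. At 2766 to 14359 counts per library, counting alone accounted for an error of 0.835% to 1.90%. Between rats of a group the coefficient of variation of the 3 genes ranged from 0.751% to 11.2%, the widest being Cacna2d1 in naïve males. In males all 3 calls were lost when CCI male replicate 1 was left out, with log2FC of 1.78, 0.68 and 0.63 and adjusted p of 0.0502, 0.0502 and 0.0513, a fit in which 0 of all genes passed with edgeR although 6494 had an unadjusted p under 0.05. Over all pairs of a CCI male and a naïve male, the ratio of CPM ranged from 3.16 to 3.96 for Cacna2d1. It ranged from 1.53 to 1.60 for Cacna2d3 and from 1.47 to 1.72 for Cacnb4.

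Whether males and females responded differently was asked with an interaction term fitted to the 8 libraries together. For Cacna2d1 the interaction log2FC was 0.12 (95% confidence interval -0.18 to 0.41, adjusted p = 0.616), so a difference between the sexes of up to 1.33-fold in favour of females is within the interval. The fitted changes of Cacna2d3 (interaction log2FC -0.46, SE 0.0988, adjusted p = 0.0629) and Cacnb4 (interaction log2FC -0.55, SE 0.111, adjusted p = 0.0566) were smaller in females, but the difference missed the threshold, which 1.59% of all genes passed. Fitted with DESeq2 the same interactions passed, with adjusted p of 0.0045 for Cacna2d3 and 0.00154 for Cacnb4. Fitted with edgeR without the filter on low counts they also passed, with adjusted p of 0.03 and 0.0192. The 2 genes thus lay on either side of the threshold depending on the test.

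The naïve sexes and the injured sexes were then compared directly, to set the order of the 4 group levels. All 3 genes were higher in both naïve females than in both naïve males, a lack of overlap that 60.0% of all genes showed in either direction, and 0 of the 3 were called by edgeR or by DESeq2. The adjusted p of Cacna2d3 was 0.0113 with DESeq2 and 0.0407 in edgeR's fit of all 8 libraries, with a log2FC inside the threshold. The log2FC of naïve females over naïve males was 0.20 for Cacna2d1 (adjusted p = 0.29), 0.30 for Cacna2d3 (adjusted p = 0.103) and 0.25 for Cacnb4 (adjusted p = 0.178), where 0.0706% of all genes were called. After CCI the order of the sexes turned for the latter pair, with a log2FC of CCI females over CCI males of -0.16 for Cacna2d3 (adjusted p = 0.343) and -0.30 for Cacnb4 (adjusted p = 0.0965). Cacna2d1 stayed higher in females, with a log2FC of 0.32 (adjusted p = 0.101), and the injured sexes did not overlap in any of the 3 genes, as in 51.2% of all genes, of which 1.06% were called. With DESeq2 the adjusted p of this comparison was 0.000507 for Cacna2d1 and 0.00676 for Cacnb4, both with a log2FC inside the threshold. The order of the means of Cacna2d1, from the lowest, was that of naïve males, naïve females, injured males and injured females. For Cacna2d3 and Cacnb4 the injured males came last, after the injured females. Neighbours in these orders were not called, and naïve females against CCI males, which are neighbours for Cacna2d1, were not tested.

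**Figure D2:**
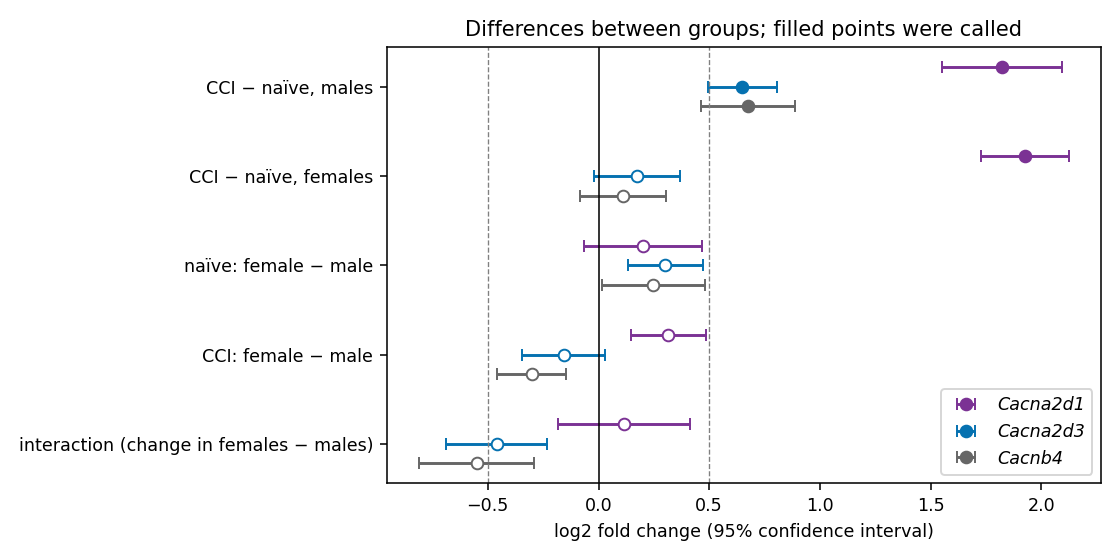
The log2 fold change (horizontal axis) of the 3 genes in 4 comparisons of groups and in the interaction, with bars for the 95% confidence interval, dashed lines at the threshold of 0.5 and filled points for calls. The interval of Cacna2d1 starts at 1.55 in males and at 1.72 in females, while those of Cacna2d3 and Cacnb4 in females include 0.

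Because the scaling between libraries cancels within a library, the subunits were also set against each other as ratios of read counts, which show how a ratio moved between groups and not which gene is the more abundant. Cacna2d1 had 0.893 and 1.04 reads for each Cacna2d3 read in naïve males, and 2.29 and 2.07 in CCI males. In females the same ratio went from 0.871 and 0.925 in naïve rats to 3.14 and 2.92 in CCI rats. The balance of the α2δ pair thus moved toward Cacna2d1 in all 4 injured rats, and the CCI females lay above the CCI males. Averaged over the sexes the log2 ratio rose by 1.46 (exact permutation test within sex, two-sided p = 0.0556, the smallest p that 36 arrangements allow). Cacna2d1 over Cacnb4 rose by 1.48 on the log2 scale with the same exact p = 0.0556.

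The ratio of Cacna2d3 to Cacnb4 did not separate injured from naïve rats. Males had 1.32 and 1.21 Cacna2d3 reads for each Cacnb4 read when naïve against 1.18 and 1.30 after CCI, and females 1.36 and 1.26 against 1.28 and 1.45. These values overlap between all groups, and the log2 ratio differed by 0.02 between CCI and naïve rats (exact permutation test, two-sided, p = 0.833). Within a single sex no ratio could reach an exact p below 0.333. Over the 9 ratios tested, including those with neuronal markers, the Benjamini-Hochberg adjusted value of the 4 smallest was 0.125.

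**Figure D3:**
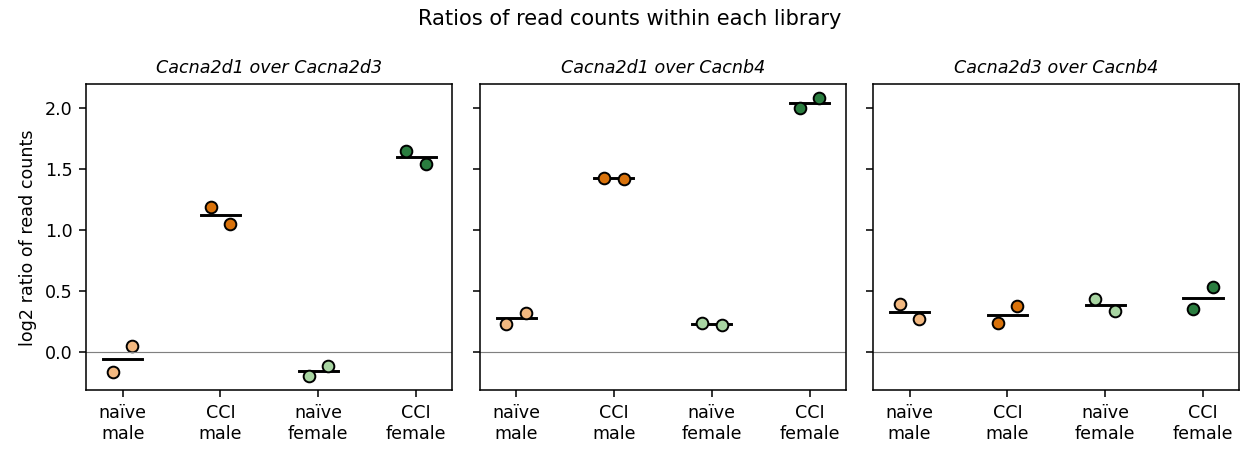
The log2 ratio of read counts of 2 subunit genes within each library (vertical axis, 0 for equal counts), with circles for single rats and lines for the mean of 2 rats. Both ratios with Cacna2d1 rise in all 4 CCI rats and most in females, whereas Cacna2d3 over Cacnb4 stays between 0.24 and 0.54 in all 8 rats.

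In whole ganglia a change in the number of neurons captured and a change of RNA per neuron cannot be told apart. Of 9 pan-neuronal markers, 4 have an identifier (Uchl1, Stmn2, Nefl and Nefm), and they were plentiful in every library. They carry a symbol only because they stand in a table of genes selected on these libraries for a change that differed between the sexes, so they are not independent of the pattern of Cacna2d3 and Cacnb4. Their summed level went from 14420 and 15920 CPM to 23440 and 24310 CPM with injury in males, and from 17190 and 18030 CPM to 18490 and 22200 CPM in females. All 4 were called higher in males (median log2FC 0.65) and 1 of 4, Stmn2, in females (median 0.15), where the median of all genes tested was -0.01 and -0.02. The share of all genes called higher was 9.05% in males and 3.69% in females. Cacna2d3 and Cacnb4 had the same calls as most of these markers, of which none passed the interaction (edgeR, adjusted p from 0.0706 to 0.185).

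For every 1000 reads of the 4 markers, Cacna2d3 had 4.83 and 4.42 reads in naïve and 4.59 and 4.58 reads in injured males, and 4.96 and 4.82 against 5.01 and 4.64 reads in females. For Cacnb4 the same quantity was 3.67 in both naïve males against 3.89 and 3.53 after CCI, and 3.66 and 3.82 in naïve against 3.91 and 3.20 in injured females. Relative to the 4 markers, neither gene separated injured from naïve rats (log2 differences of -0.02 and -0.03, exact permutation p = 0.722 and p = 0.778). Nefl and Nefm had the highest CPM of the 4 in every library and so weigh most in their sum. Cacna2d1 went from 4.31 and 4.58 to 10.5 and 9.46 reads in males and from 4.32 and 4.46 to 15.7 and 13.5 reads in females. Its increase of 1.45 on the log2 scale (exact permutation test, p = 0.0556) stands beside the 1.46 relative to Cacna2d3. Avil, an actin-binding protein of sensory neurons, was the only 1 of 6 identity genes with an identifier. It was called higher in males (log2FC 0.70) and not in females (log2FC 0.32, adjusted p = 0.0619). Against Avil, the log2 ratio differed by -0.099 for Cacna2d3 and -0.117 for Cacnb4 between CCI and naïve rats (exact permutation test, p = 0.111 for each). In these ratios both injured females lay below both naïve females, while the male groups overlapped. Of 7 nociceptor markers, 3 have an identifier (Calca, Tac1 and P2rx3). All 3 were called higher in males and none in females (edgeR, median log2FC 0.91 and 0.31), where 9.05% and 3.69% of all genes were. These 3 genes carry a symbol only through the study's tables of changed genes, so the count is a description. The 2 large-fibre genes with an identifier, of 4 listed, differed from each other. Nefh, a neurofilament gene, was called higher in males (log2FC 0.65) and not in females (log2FC 0.23, adjusted p = 0.204). Pvalb, which encodes the calcium-binding protein parvalbumin, was not called in males (log2FC 0.06, adjusted p = 0.647) and was called lower in females (log2FC -0.84, adjusted p = 0.0105).

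Genes of other cells moved with injury too, where 2126 of 16988 genes were called lower in males and 340 in females. All 4 Schwann cell genes with an identifier (Mbp, Mag, Prx and Sox10, of 7 listed) were called lower in males and 1 of 4, Mbp, in females, with a summed level that went from 11720 and 9618 CPM to 2962 and 2842 CPM in males and from 8058 and 6463 CPM to 4564 and 3456 CPM in females. Fabp7, a satellite glia gene, was called lower in both sexes. The 3 fibroblast genes with an identifier, of 4 listed, were called lower in males and none in females. The part of these shifts in the change of the channel genes was not tested. Skeletal muscle expresses much Cacna2d1, and 10 muscle genes with an identifier were listed after the data were seen. Of these, 8 were called higher in males, where 9.05% of all genes were. Their summed level was 36.2 and 56.2 CPM in naïve males against 138 and 146 CPM after CCI. In females the same sum was 52.8 and 33.0 CPM in naïve rats and 26.5 and 28.9 CPM in CCI rats, with 0 of the 10 called higher and 1, Casq1, called lower by edgeR. The part of muscle RNA in the change of Cacna2d1 was not tested. Of 3 smooth muscle genes with an identifier, 3 were called higher in males and 1 was called lower in females. The genes of this paragraph carry a symbol only through the study's tables of changed genes, so these counts are a description. Cd163, the 1 macrophage gene of 6 listed with an identifier, was low, at 1.54 to 5.96 CPM. It was not called after CCI in either sex. Between the injured sexes it was called higher in females (edgeR, log2FC 1.77, adjusted p = 0.02).

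Most other channel subunits were not analysed here, because symbols were available for 1961 identifiers only. Of 10 genes of pore-forming α1 subunits 1 was found, Cacna1g, which encodes a low-voltage-activated T-type channel. Neither of the other α2δ genes, the remaining gabapentinoid-binding gene among them, and no further β gene was among them. Cacna1g was expressed at 2.83 and 1.96 CPM in naïve and 1.61 and 1.63 CPM in injured males, and at 0.782 and 1.21 CPM in naïve and 2.04 and 1.05 CPM in injured females. It was low in all rats and was not called (log2FC -0.56, adjusted p = 0.127 in males and log2FC 0.63, adjusted p = 0.353 in females). None of the 8 γ subunit genes was among the named identifiers.

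Proteins that bind the α1 or β subunit were represented by 2 of 13 listed genes. Stac2, an adaptor that binds calcium channels and slows their inactivation, went from 0.937 and 1.03 CPM to 23.3 and 24.0 CPM in males and from 1.48 and 0.922 CPM to 43.0 and 41.5 CPM in females. It was called in both sexes like Cacna2d1. Ahnak, a scaffold that binds β subunits, was not called in males (log2FC -0.13, adjusted p = 0.259). In females it lay just inside the log2FC threshold (log2FC 0.496, adjusted p = 0.0285) and was not called.

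Partners of α2δ proteins had 7 of 15 listed genes with an identifier, and they moved in both directions. Thrombospondins are secreted proteins that bind α2δ-1 and promote synapse formation. Thbs1 was at 42.7 and 31.4 CPM in naïve and 33.2 and 36.6 CPM in injured males. It was at 21.9 and 26.6 CPM in naïve and 42.5 and 47.8 CPM in injured females, and was called higher in females alone (log2FC 0.89, adjusted p = 0.00639), with no passing difference between the sexes (adjusted p = 0.0666). Thbs4 went from 78.0 and 81.3 CPM to 44.4 and 51.8 CPM in males, and its female values were 85.2 and 83.3 CPM without and 88.8 and 88.6 CPM with injury. It was called lower in males (log2FC -0.72, adjusted p = 0.00767), as was Thbs3 (log2FC -1.19, adjusted p = 0.00618), and neither was called in females. Thbs2 was not called in either sex, and in males it lay just inside the log2FC threshold (log2FC -0.49, adjusted p = 0.0099).

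Of the membrane partners, Kcnma1, the pore of the BK potassium channel, which α2δ-1 also binds, was at 26.6 and 30.1 CPM in naïve and 52.4 and 53.2 CPM in injured males, and at 37.6 and 34.4 CPM in naïve and 45.0 and 45.6 CPM in injured females. It was called higher in males (log2FC 0.90, adjusted p = 0.00565) and not in females (log2FC 0.32, adjusted p = 0.0567). Prnp, the gene of the prion protein, was likewise called in males (log2FC 0.57, adjusted p = 0.0105) and not in females (log2FC 0.03). The difference between the sexes did not pass for either gene (interaction adjusted p = 0.0591 for Kcnma1 and 0.0629 for Prnp). Lrp1, an endocytic receptor that takes part in α2δ trafficking, was not called in males (log2FC -0.22, adjusted p = 0.0611). In females Lrp1 was not called because it was below the log2FC threshold (log2FC 0.48, adjusted p = 0.0128). The interaction of Lrp1 passed (log2FC 0.71, adjusted p = 0.041). Counted together, 2 of the 7 partners were called higher and 2 lower in males, and 1 was called higher in females. Their median log2FC was -0.22 in males and 0.17 in females, where the median of all genes tested was -0.01 and -0.02. Among all genes tested, 9.05% were called higher in males and 3.69% in females, and 2126 of 16988 were called lower in males.

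The release machinery, which the calcium that enters through these channels sets in motion, had 4 of 13 listed genes with an identifier. Syt2, a calcium sensor of fast release, was called higher in males (log2FC 0.76, adjusted p = 0.00653) and not in females (log2FC 0.27, adjusted p = 0.126), with an interaction adjusted p of 0.112. Snap25, Vamp1 and Cplx1 were not called in either sex. In males Snap25 (log2FC 0.493, adjusted p = 0.0132) and Cplx1 (log2FC 0.4996, adjusted p = 0.0149) lay just inside the threshold on the log2FC. Vamp1 was at 1210 and 1281 CPM in naïve females and 826 and 958 CPM in CCI females (log2FC -0.49, adjusted p = 0.0258), also just inside that threshold. A list of 14 genes with a calcium-related full name, Kcnma1 included, was made after the data were seen. By edgeR's test 9 of them were called higher and 1 lower in males, and 0 higher and 1 lower in females. Among all genes tested, 9.05% were called higher in males and 3.69% in females. The 14 genes carry a symbol only because they stand in the study's tables of changed genes, so the count is a description. Cadps, which primes dense-core vesicles for release, was called in males (log2FC 0.90, adjusted p = 0.00569) and was below the log2FC threshold in females (log2FC 0.38, adjusted p = 0.0369).

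**Figure D4:**
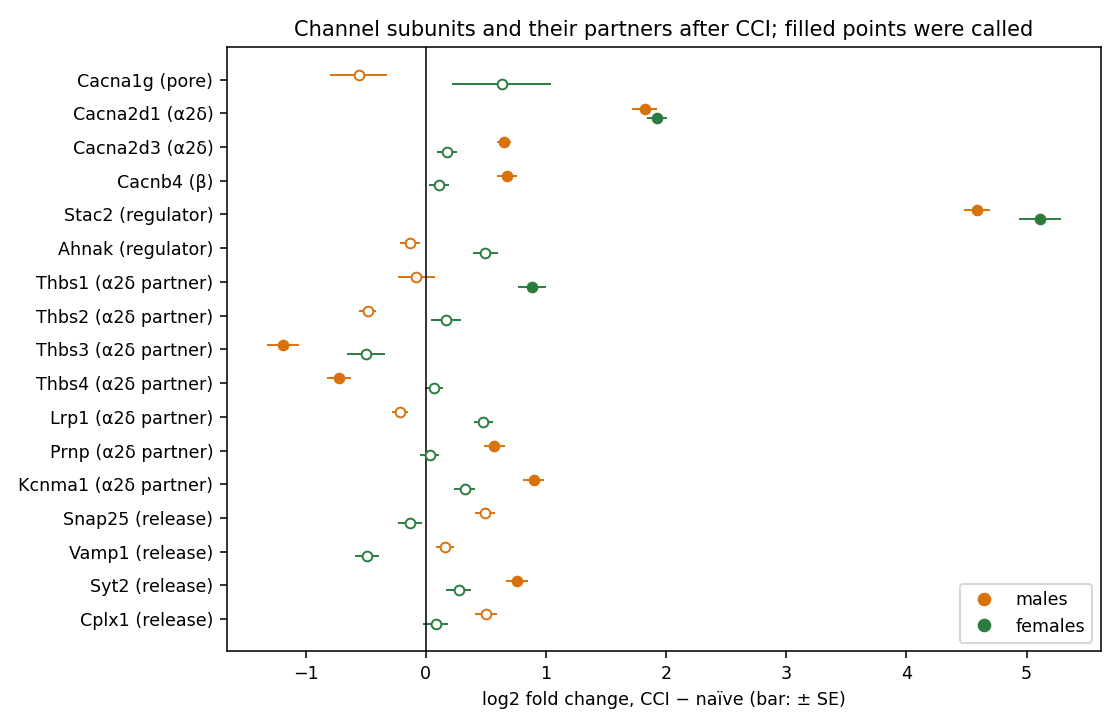
The log2 fold change after CCI (horizontal axis, bars for the SE) of 17 genes of channel subunits, regulators, α2δ partners and release machinery in males and in females, with filled points for calls. Cacna2d1 and Stac2 are the genes filled in both sexes, while Cacna2d3, Cacnb4, Kcnma1, Prnp and Syt2 are filled on the higher side in males only.

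Genes of the injury response of sensory neurons were called in both sexes, like Cacna2d1. All 7 genes with an identifier of 11 listed (Atf3, Gal, Vip, Gap43, Csf1, Bdnf and Reg3b) were called higher in males and in females, with a median log2FC of 2.56 and 3.09. The study chose these genes on these libraries, so the count is a description. Among the 5 genes whose log2 CPM followed Cacna2d1 most closely over the 8 libraries was Bdnf (Pearson r = 0.997), a neurotrophin that rises in injured neurons, with group means that went from 23.1 to 59.0 CPM in males and from 27.0 to 65.4 CPM in females. The other 4 have no symbol in the tables used.

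The genes most like Cacna2d3 were Zwint (r = 0.998), Tmx2 (r = 0.996), Aldoc (r = 0.995) and RGD1305733 (r = 0.994), and 1 without a symbol. Zwint, a kinetochore-associated protein that also binds SNAP25, had group means that went from 1444 to 2277 CPM in males and from 1776 to 2005 CPM in females, the same order of groups as Cacna2d3. The genes most like Cacnb4 were LOC304725 (r = 0.993) and F2rl2 (r = 0.992), a protease-activated receptor, and 3 without a symbol. Such likeness was not rare, as r was above 0.9 for 7.79% of genes with Cacna2d1, 7.30% with Cacna2d3 and 4.36% with Cacnb4. The correlation between members was 0.935 for Cacna2d3 with Cacnb4, 0.848 for Cacna2d1 with Cacna2d3 and 0.781 for Cacna2d1 with Cacnb4. All of these values describe 8 libraries in 4 groups that share the same scaling.

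Both α2δ genes rose in injured males, so the 250 bases before an annotated start of each are shown, as RefSeq gives them for assembly GRCr8, which is not the build of the counts. The first of 3 Cacna2d1 windows lies at chr4:20330148-20330397 and the Cacna2d3 window at chr16:4918900-4919149, both on the minus strand and read 5′ to 3′, and Cacnb4 was not among the sequences used. Capitals mark the GC box (GGGCGG, either strand, overlaps counted).
Cacna2d1: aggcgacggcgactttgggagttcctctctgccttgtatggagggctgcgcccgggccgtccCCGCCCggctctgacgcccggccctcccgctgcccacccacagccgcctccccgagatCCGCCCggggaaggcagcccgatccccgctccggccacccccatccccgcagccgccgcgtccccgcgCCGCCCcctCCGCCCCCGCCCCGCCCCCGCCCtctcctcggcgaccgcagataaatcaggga
Cacna2d3: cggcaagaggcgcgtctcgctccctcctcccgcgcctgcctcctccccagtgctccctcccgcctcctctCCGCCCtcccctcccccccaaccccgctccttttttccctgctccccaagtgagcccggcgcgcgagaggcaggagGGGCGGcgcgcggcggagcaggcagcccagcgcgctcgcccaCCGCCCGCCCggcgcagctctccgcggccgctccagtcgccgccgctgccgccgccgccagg

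The Cacna2d1 window held 7 GC boxes and was 77.2% G and C, and the Cacna2d3 window held 4 and was 78.8% G and C, where the median of 33469 windows of this length was 51.2% and 30.5% of them held at least 1 GC box. The other Cacna2d1 windows, which overlap each other, held 3 GC boxes each. Neither printed window held the AP-1 letters TGANTCA, the CRE letters TGACGTCA or the TATA letters TATAAA on either strand, which were in 6.34%, 1.59% and 12.9% of all windows. A match or its absence describes these letters in this window only.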

How the data were processed

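RNA was measured in 8 libraries, 2 rats in each of 4 groups. Per the paper's methods, the authors aligned strand-specific poly(A) paired-end reads to rn6 with HISAT2, removed ribosomal RNA reads and counted reads per Ensembl gene with featureCounts; base calling used CASAVA 1.8.2 per the submitters' processing notes. The deposited values are raw counts, without batch correction, and 0 columns were left out. Symbols for 1961 identifiers came from the paper's tables of changed genes, so named members of any list are partly chosen by their own change.

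Counts were filtered with edgeR's filterByExpr (minimum count 10, minimum total 15), scaled with TMM and tested by edgeR's quasi-likelihood test (edgeR 4.0.16, R 4.3.3) on the 4 libraries compared, or all 8 for the interaction, with Benjamini-Hochberg adjustment over all 16988 genes tested. The SE is the log2FC divided by the root of F. Log2 CPM used a prior count of 2. Alternatives were DESeq2 1.42.0, other scalings, filters and thresholds, the replicate block and leaving out each library. Fits were tested on simulated data. Shares of each subunit family and comparisons per length were not made, since lengths and most identifiers were lacking; ratios of members were added in their place. The rule named the members, up to 4 called genes per channel-related list and sex, the 5 genes most like each member and up to 3 genes per marker list; other genes were named after their values were seen. Members and lists were chosen with earlier results of these data known. The values of 1 gene of the lists are not reported here.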

Additional observations from a re-analysis of the deposited data

Results flagged for a closer look

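Groups of 2 rats are too small for a search for outlying samples. By edgeR's interaction test, males and females differed in their change with injury in 4 genes of the channel-related and calcium-named lists. None of the 3 accessory subunit genes was among them, and 1.59% of all genes tested passed. The listed genes carry a symbol only because they stand in the study's tables of changed genes, so the count is a description. Thbs4 had an interaction log2FC of 0.80 (adjusted p = 0.0412) and Lrp1 of 0.71 (adjusted p = 0.041), both with the larger value in females. Cask, a scaffold kinase of the presynaptic membrane, had an interaction log2FC of -0.54 (adjusted p = 0.0483). For Necab3, a protein with a calcium-binding domain, the interaction log2FC was -0.54 (adjusted p = 0.0483). Both had the larger value in males and stand in the list of calcium-related names, made after the data were seen.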

How the results depend on the processing

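The values of the 3 genes were recomputed under 201 combinations of gene, comparison and alternative, of which 190 kept direction and call, 5 lost and 5 gained a call (for the interaction, by adjusted p alone), and 1 turned in direction. No scaling or filter turned the direction of a member. With glmTreat, which tests against a log2FC of 0.5, Cacna2d3 (0.649, adjusted p = 0.0879) and Cacnb4 (0.673, adjusted p = 0.123) were not called in males, which left 1 of 4 channel subunit genes called higher in place of 3. The interaction, not called in edgeR's fit, passed with DESeq2 (-0.47 for Cacna2d3 and -0.56 for Cacnb4), without the filter on low counts (-0.475 and -0.565) and, for Cacnb4, with at least 10 counts in every library (-0.541). Against Avil in place of the 4 pan-neuronal markers, the log2 ratio of Cacna2d3 was lower by more than its spread between rats (-0.0993 against -0.0157). That of Cacnb4 was also lower, but by less than its spread (-0.117 against -0.0332). The cause of these shifts was not tested.

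Leaving out each library in turn gave a log2FC after CCI in males of 1.70 to 1.94 for Cacna2d1, 0.62 to 0.678 for Cacna2d3 and 0.597 to 0.747 for Cacnb4, with 0 to 3 channel subunits called higher. The 0 came from CCI male replicate 1, without which 0 of all genes were called by edgeR, with 6494 at an unadjusted p under 0.05. The lone rat left in a group is then assumed to vary like the others. The interaction of Cacna2d1 ranged from -0.00396, without naïve male replicate 2 (adjusted p = 0.988), to 0.225. That of Cacna2d3 ranged from -0.54 to -0.385 and that of Cacnb4 from -0.624 to -0.481.

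The replicate numbers were not taken to pair the rats, because the labels do not say that a number marks a shared litter, batch or day and each comparison has only 2 numbers. Replicate 1 of both male groups shares an unexplained letter in its column name. Deviations of same-numbered rats from their group means correlated at 0.731 between the male groups and at -0.00788 between the female groups. With the replicate block no call of a member changed (in males 1.83, 0.649 and 0.675). Their edgeR adjusted p in males fell from 0.00565, 0.00565 and 0.00661 to 6.24e-10, 6.78e-06 and 9.01e-06. With the block, a fit of 4 libraries leaves little to estimate the variation between rats, so the fall is not read as stronger evidence. With the block 4478 of all genes were called in males in place of 3663. For 1 channel subunit, Cacna1g, a lower call in males was gained in place of 0.

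Counts of called genes varied more than the members. In males 3663 genes were called, 6447 without a log2FC threshold, 968 with glmTreat and 0 to 3722 with a library left out. In females 967 were called, against 1560, 161 and 84 to 1836. Between naïve sexes 12 were called, against 996 with DESeq2, 906 in a fit of all 8 libraries, 130 without the filter, 1 with at least 10 counts in every library, 6 with the block and 6 to 327 with a library left out. Between injured sexes 180 were called, against 394 with DESeq2, 284 without the filter, 59 with glmTreat, 68 with the block and 32 to 656 with a library left out. The interaction was called in 270 genes, against 1618 with DESeq2, 1032 without the filter, 532 with at least 10 counts in every library, 0 with glmTreat (852 at an unadjusted p under 0.05) and 0 to 563 with a library left out.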
